A study of Mus musculus with 11 samples.

Results

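The members described here are contacts within one autosome whose ends lie 50 Mb or more apart on the chromosome, in Hi-C maps of mouse Th1 cells. They were chosen by distance alone: both ends on the same autosome (a cis contact) and coordinates at least 50 Mb apart. The 10 single cells together held 13860 such contacts, among 149509 autosomal cis contacts and 182480 autosomal contacts in all. Another 42330 of their contacts joined ends 10 to 50 Mb apart and serve as the comparison at shorter range. Hi-C crosslinks chromatin, cuts it with a restriction enzyme and ligates ends that lie close together, and a contact is listed as 2 restriction fragment ends that were found joined. Random ligation can also join ends that were not neighbours, and its share was not tested.

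All cells came from spleens of male C57BL/6 mice. Spleen suspensions were stimulated with anti-CD3, CD4+ cells were purified on anti-CD4 beads and expanded with IL-2, per the labels. The maps were 9 single cells cut with Bgl II (cells 1 to 7, 9 and 10), 1 single cell cut with Dpn II (cell 8), a file of pooled single cells, and 1 ensemble map of a population cut with Bgl II. The enzyme and the cell cannot be told apart in cell 8, which is therefore given as a value and left out of means and tests. The labels do not say that the cells came from separate animals or cultures, so p-values measure the spread between these cells, which may be technical. The 2 copies of each autosome cannot be told apart in these files, so a contact may lie within either copy or join the 2. The maps list positions and hold no readout of cell type, so the Th1 label could not be set against marker genes.

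Each of the 9 Bgl II cells held between 10834 and 29970 autosomal contacts. Cell 8 held 11920, the whole pool 2235291 and the ensemble 50480667. All 170490 distinct autosomal contacts of the 9 cells, with those repeated between cells counted once, were also listed in the pool. The pool was therefore used after taking out those contacts, which left 126427 members among 1650642 cis contacts. The ensemble held 3049901 members among 25251667 cis contacts.

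In an interphase nucleus each chromosome occupies a territory of its own, and the chance that a pair of loci touch falls as the distance along the chromosome grows. Contacts across long stretches of a chromosome need the chain to return to itself, through whole arms lying side by side or through local patches. Chromatin also sorts into compartments, which in mammals largely separate active, gene-dense chromatin from inactive chromatin and which prefer partners of their own kind. Mouse autosomes are acrocentric: the centromere lies at one end, at the start of the coordinates, so each chromosome is in effect a single long arm.

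The share of cis contacts that spanned 50 Mb or more varied by more than counting error. Cell 4 led with 15.4% (2252 contacts, 95% Wilson interval 14.8 to 15.98). Cells 2, 7 and 3 followed with 12.7%, 11.4% and 11.1%, cell 9 was the median with 9.89%, and cells 5 and 6 held 7.77% and 7.15%. The lowest shares were those of cell 10 with 5.18% (460 contacts, 4.73 to 5.66) and cell 1 with 4.15% (1159 contacts, 3.92 to 4.39). Neighbours in this order whose intervals overlapped were cells 3 and 7 and cells 5 and 6. These intervals cover counting error only.

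Over the 9 Bgl II cells the mean share was 9.41% ± 3.65 (SD, n = 9). Cell 8 had 10.8%, the remaining pool 7.66% and the ensemble 12.1%. The ensemble share lay inside the range of the single cells, as did that of the pool. At 10 to 50 Mb the share was 27.1% ± 4.58 (SD, n = 9) in the 9 cells, with the highest value, 35.9%, in cell 1, the cell with the lowest share at 50 Mb or more.

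**Figure D1:**
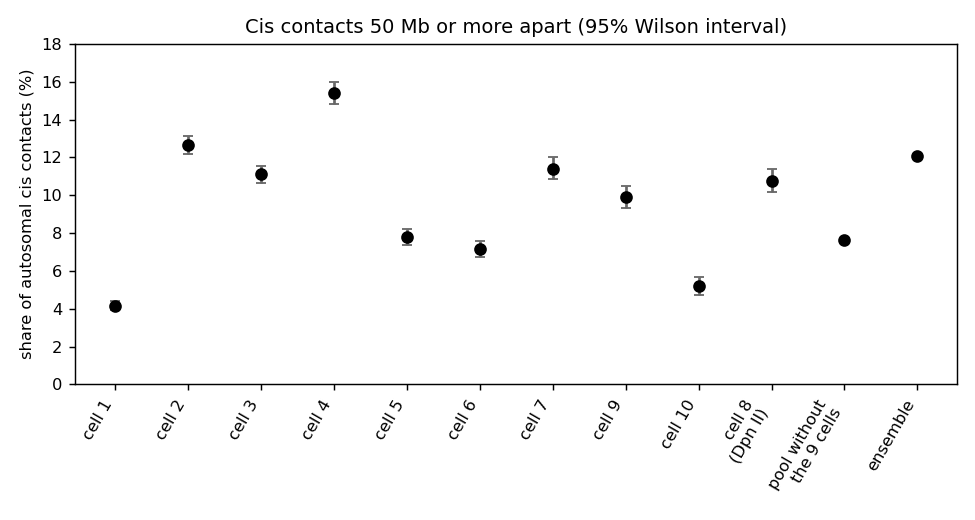
Share of autosomal cis contacts with ends 50 Mb or more apart (percent, y axis) in each map (x axis), with 95% Wilson intervals that cover counting error only. The single cells spread from 4.15% in cell 1 to 15.4% in cell 4, and the pool without the 9 cells (7.66%) and the ensemble (12.1%) lie inside that range.

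How far the members reached also differed. Their median distance was 59.4 Mb in cell 1 and 71.2 Mb in cell 2, the extremes of the 9 cells, against 66.6 Mb in the remaining pool and 68.7 Mb in the ensemble. Ends 100 Mb or more apart made up 1.47% of the members in cell 1 (17 contacts) and 15.4% in cell 2 (387 contacts), with a mean of 8.87% ± 3.81 (SD, n = 9). The longest contact of any single cell spanned 190.2 Mb, in cell 2.

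The share at 50 Mb or more was higher in cells with a higher share of contacts between autosomes (trans contacts). As a description over 9 cells, in each of which both shares rest on the same map, Pearson's r was 0.721 and Spearman's rho 0.667, and r was 0.521 without cells 1 and 2, the cells farthest from the median trans share. Trans contacts ranged from 6.86% of contacts in cell 1 to 25.4% in cell 2 and made up 49.98% of the ensemble. The part of the trans share in the long-range share was not tested. With the share at 10 to 50 Mb, r was 0.0164 and rho -0.0333, and r was 0.442 without cells 1 and 10, the cells farthest from the median of that share.

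Density was then measured as contacts per pair of 1 Mb positions, divided by the density of trans contacts of the same map, so that depth cancels. At 50 Mb or more the lowest ratio was 9.91 (cell 10), the median 19.8 (cell 4) and the highest 29.7 (cell 7). All 9 cells lay above 1: positions 50 Mb or more apart on the same autosome were joined more often than positions on different autosomes. The mean was 19.4 ± 6.50 (SD, n = 9), with an adjusted p of 0.00558 (exact sign-flip permutation test over the 9 cells, two-sided, 10 tests adjusted as a family). Its raw p of 0.00391 is the smallest that 9 cells can give. The ratio was 15.7 in cell 8, 12.8 in the remaining pool and 5.06 in the ensemble.

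The density of the members fell with distance and had no step at the threshold. Just inside it, at 50 to 55 Mb, the mean over the 9 cells was 35.0 times the trans density, and just outside it, at 45 to 50 Mb, 39.9 times. It was 32.4 ± 14.4 (SD, n = 9) at 50 to 60 Mb, 21.5 ± 7.72 at 70 to 80 Mb, 11.98 ± 5.37 at 90 to 100 Mb and 5.96 ± 3.57 at 120 to 140 Mb. Beyond 140 Mb it was 3.14 ± 2.01, against 2.64 in the remaining pool and 1.65 in the ensemble. The class beyond 140 Mb held 106 contacts in the 9 cells, 46 of them in cell 2. Its contacts were still denser than trans contacts in the mean, though not in cell 10, where 1 contact gave 0.559 (95% Poisson interval 0.0142 to 3.12). The intervals of cells 1 (0.578 to 5.43), 5 (0.486 to 3.49) and 9 (0.383 to 5.43) also included 1. Those of cells 2, 3, 4, 6 and 7 lay above 1.

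The profiles of cell 1 and cell 7 parted at long range. Cell 1 was the densest cell at 10 to 20 Mb, with 227 times the trans density, and at 50 to 60 Mb, with 59.7 times, but the sparsest at 100 to 120 Mb with 1.71 (11 contacts, 0.854 to 3.06). Its 120 to 140 Mb class held 2 contacts, or 0.615 times the trans density (0.0745 to 2.22). Cell 7 held 69.3 times the trans density at 10 to 20 Mb and 40.2 times at 50 to 60 Mb. It was the densest of the 9 cells in every distance class from 60 to 140 Mb. At 120 to 140 Mb it held 11.7 times the trans density (34 contacts, 8.13 to 16.4). These levels also depend on the trans contacts of the cell, which made up 6.86% of contacts in cell 1 and 13.9% in cell 7. The part of the trans contacts in the order of the cells was not tested.

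**Figure D2:**
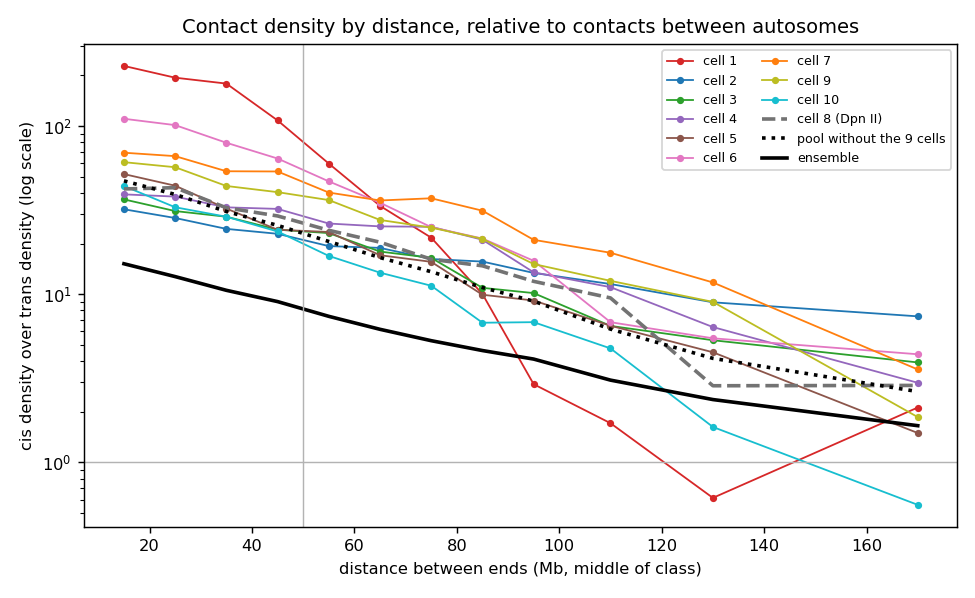
Density of cis contacts over the density of contacts between autosomes in the same map (y axis, log scale) against the distance between the ends (Mb, middle of each distance class; the vertical line marks 50 Mb, the horizontal line equal density). Cell 1 has the highest density at 50 to 60 Mb (59.7) and the lowest at 100 to 120 Mb (1.71), and the ensemble lies below the mean of the cells in every class.

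By chromosome, the share of cis contacts at 50 Mb or more followed length, since a long chromosome offers more pairs of positions that far apart. Chromosome 1 had a mean share of 13.3% ± 6.34 (SD, n = 9), chromosome 10 of 9.79% ± 5.95, chromosome 16 of 8.16% ± 2.66 and chromosome 18 of 4.97% ± 2.18. Chromosome 19, the shortest, had 0.245%, from 10 contacts in all 9 cells. Over the 19 autosomes the mean share and length had an r of 0.925 and a rho of 0.962, a description across chromosomes of the same cells. Every cell had members on at least 18 autosomes.

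Chromosomes were next compared at matched distance: the members of a cell in each 10 Mb distance class were shared out over chromosomes by the pairs of positions each offers, and observed contacts were set against that number. On this scale length and the mean log2 ratio had an r of 0.0192 and a rho of -0.361 over the 19 chromosomes. Without chromosome 19, which rests on 10 contacts, r was -0.602 and rho -0.601 over 18, so shorter chromosomes tended to the higher ratios. None of the 19 chromosomes had more (0%) or fewer (0%) members than expected at an adjusted p under 0.05 by exact sign-flip permutation over the 9 cells. A lone chromosome could not have passed: the smallest raw p of this permutation with 9 cells, 0.00391, becomes 0.0742 after adjustment over 19 chromosomes. The lack of calls therefore cannot show that no chromosome deviated. Unadjusted p-values under 0.05 were found for 3 chromosomes, 16, 14 and 5.

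Chromosome 16 had the largest mean excess. Its observed over expected number was lowest in cell 9 with 1.31 (27 contacts against 20.6 expected), 1.54 in cell 2, the median, and highest in cell 6 with 2.39 (59 against 24.7). All 9 cells lay above 1, with a geometric mean of 1.58 and an adjusted p of 0.0742 (exact sign-flip permutation, Benjamini-Hochberg over 19 chromosomes). Cell 8 had 1.08, the remaining pool 1.38 and the ensemble 1.37. When cell 8 entered the test, the adjusted p was 0.0371 by exact permutation over 10 cells.

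Chromosome 14 had a geometric mean ratio of 1.22 and lay above 1 in 8 of 9 cells, with an adjusted p of 0.272 by exact permutation, and 0.897 in cell 8. Chromosome 5 had a geometric mean of 0.880 and lay below 1 in 8 of 9 cells, with an adjusted p of 0.272 by exact permutation, and 1.24 in cell 8. In both chromosomes cell 8 lay on the other side of 1 from most Bgl II cells.

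Within a cell, chromosomes differed more than counting error gives. The squared deviation of observed from expected counts, per degree of freedom, averaged 5.43 ± 2.84 (SD, n = 9), where independent contacts would give about 1. It was lowest in cell 9 with 1.65, and highest in cell 2 with 10.4. Among chromosomes with at least 10 expected contacts, chromosome 16 had the highest ratio in cells 1, 3, 5, 6, 7 and 10, chromosome 10 in cells 2 and 4, chromosome 18 in cell 9 and chromosome 9 in cell 8.

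The lowest ratios fell on different chromosomes. Cell 1 was lowest on chromosome 6 with 44 contacts against 82.7 expected, cell 2 on chromosome 8 with 64 against 121, and cell 3 on chromosome 4 with 86 against 151. Cell 4 was lowest on chromosome 7 (84 against 134), cell 5 on chromosome 9 (28 against 54.1) and cell 6 on chromosome 5 (44 against 77.3). Cells 7 and 10 were both lowest on chromosome 10, while cells 9 and 8 were both lowest on chromosome 2.

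Chromosome 10 changed places from cell to cell. It held 201 members against 125 expected in cell 2 and 156 against 116 in cell 4, the highest ratios of those cells. In cell 7 it held 46 against 66.5 and in cell 10 it held 10 against 24.1, the lowest ratios of those cells. Its geometric mean over the 9 cells was 0.983, and its SD on the log2 scale was 0.56, against 0.28 for chromosome 16.

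**Figure D3:**
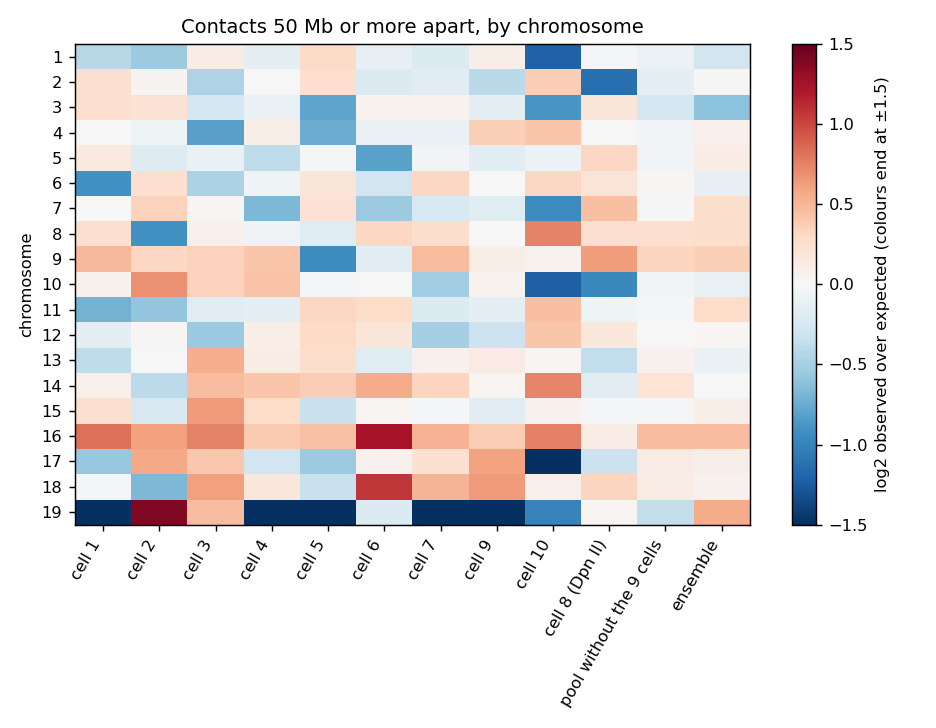
Observed over expected number of contacts 50 Mb or more apart at matched distance (log2, colour; red is more, blue is fewer, colours end at ±1.5) for each autosome (rows) in each map (columns). Chromosome 16 is above expected in every map, while chromosome 10 is high in cells 2 and 4 and low in cells 7, 8 and 10; chromosome 19 rests on 10 contacts in the 9 Bgl II cells.

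Whether the members of a cell gathered in patches was asked by dividing each chromosome into tiles of 5 Mb by 5 Mb. The measure was the share of pairs of members that fell in the same tile, over the same share in the ensemble, which does not depend on depth. In single cells this ratio was lowest in cell 7 with 1.15, had a median of 1.70 in cell 6 and was highest in cell 1 with 2.89. All 9 cells lay above the ensemble, with a geometric mean of 1.62 and an adjusted p of 0.00558 (exact sign-flip permutation, 9 cells). Cell 8 had 1.69. The ensemble was not weighted to the distances of each cell, here or in the numbers expected from ensemble shares below. Cell 1, with the highest ratio, had the shortest median distance of its members, 59.4 Mb. The part of distance in these values was not tested.

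Pairs of members from different cells did not gather in this way. Over the ensemble, the share of such pairs in the same 5 Mb tile had a geometric mean of 0.913. The ratio of pairs within a cell to pairs between cells was lowest in cell 7 with 1.25 and highest in cell 1 with 3.10, with a geometric mean of 1.78 and an adjusted p of 0.00558 (exact sign-flip permutation, 9 cells). Each cell thus had its own preferred tiles more than tiles shared with the other cells, though distances were not matched between cells.

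The gathering was strongest at small scale. Within cells the geometric mean ratio to the ensemble was 4.21 for tiles of 1 Mb, 2.59 for 2 Mb, 1.62 for 5 Mb, 1.29 for 10 Mb and 1.17 for 20 Mb. With pairs of contacts that shared a fragment end left out, the ratio for 1 Mb tiles was 4.19. Between cells it was 0.870 for 1 Mb, 0.880 for 2 Mb, 0.941 for 10 Mb and 0.996 for 20 Mb.

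Patches were also traced contact by contact, joining members whose ends lay within 2 Mb of each other at both sides. On the 135 chromosomes of the 9 cells that held at least 30 members, the largest patch held a median of 7.69% of them. It held under 10% on 94 of the 135, over 25% on 4 and over 50% on none. A median of 40.9% of the members were alone, with no other member within 2 Mb at both ends. Single patches therefore carried a minority of the members on each of these 135 chromosomes. Below 30 members this did not always hold: on chromosome 19 of cell 2 all 6 members lay in 1 patch.

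The largest share in 1 patch was found on chromosome 17 of cell 3, where 22 of 51 members joined chr17:8681066-14013562 with chr17:61179519-72677164 (mm9). The ensemble shares gave 6.80 contacts there for 51 members. The other 9 single cells together held 25 contacts in that box. The remaining pool held 411, among 2680 members on chromosome 17. No expected number was computed for these counts, so recurrence beyond the ensemble shares cannot be read from them. On chromosome 15 of cell 2, 14 of 50 members joined chr15:14809323-20539300 with chr15:87214388-92651348 (0.828 expected from the ensemble). On chromosome 16 of cell 3, 20 of 73 joined chr16:30514593-37814538 with chr16:89871797-95220280 (7.84 expected). The other 9 cells held 17 contacts in the chromosome 15 box and 18 in the chromosome 16 box. The remaining pool held 120 of 3233 and 233 of 3798 members there, again with no expected number computed.

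Chromosome 3 of cell 1 held the patch with the most contacts, 28 of 111 members, joining chr3:3465968-12891833 with chr3:63624320-72370252 (2.21 expected). On chromosome 16 of cell 5, 9 of 36 joined chr16:20438374-27221597 with chr16:88541098-92610210 (1.43 expected). The largest patch of cell 2 held 15 of 100 members on chromosome 13, that of cell 4 held 11 of 69 on chromosome 15, that of cell 5 held 13 of 152 on chromosome 2 and that of cell 6 held 10 of 55 on chromosome 10. In cells 7, 9, 10 and 8 the largest patches were smaller, with 5, 6, 4 and 7 contacts. Because each box was drawn around the patch itself, its observed number had to be high, and these values are a description.

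At the other extreme, cell 7 had no patch above 3 of 117 members on chromosome 3, 4 of 145 on chromosome 1 and 3 of 96 on chromosome 4. Cell 2 had no patch above 9 of 299 members on chromosome 2, although it held 11 patches of 5 or more contacts there. Cell 4 had no patch above 5 of 160 on chromosome 6. Chromosome 3 thus appeared in both lists, with 25.2% of its members in 1 patch in cell 1 and 2.56% in cell 7.

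Patches took a larger share on short chromosomes, which hold fewer members. The median share of the largest patch was 4.33% on chromosome 1 (8 cells with at least 30 members), 7.69% on chromosome 8 (9 cells), 13.3% on chromosome 16 (7 cells) and 18.8% on chromosome 18 (3 cells). Chromosome 19 had too few members in every cell.

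In single tiles the most contacts were found in cell 3 on chromosome 9, with 13 of 114 members joining chr9:30000001-35000000 with chr9:85000001-90000000, where the ensemble shares gave 1.496. The other 9 cells held 12 contacts in that tile, with no expected number computed, and the remaining pool 120 against 94.2 expected from the ensemble shares. Cell 1 had the next tile, with 11 of 135 on chromosome 2 joining chr2:100000001-105000000 with chr2:160000001-165000000 (0.975 expected). A further 4 tiles held 10 contacts each, 3 of which were named by order of chromosome: those of cell 1 on chromosomes 3, 5 and 8. The tile on chromosome 5 joined chr5:45000001-50000000 with chr5:95000001-100000000, where the ensemble shares gave 0.263 of 91 contacts.

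**Figure D4:**
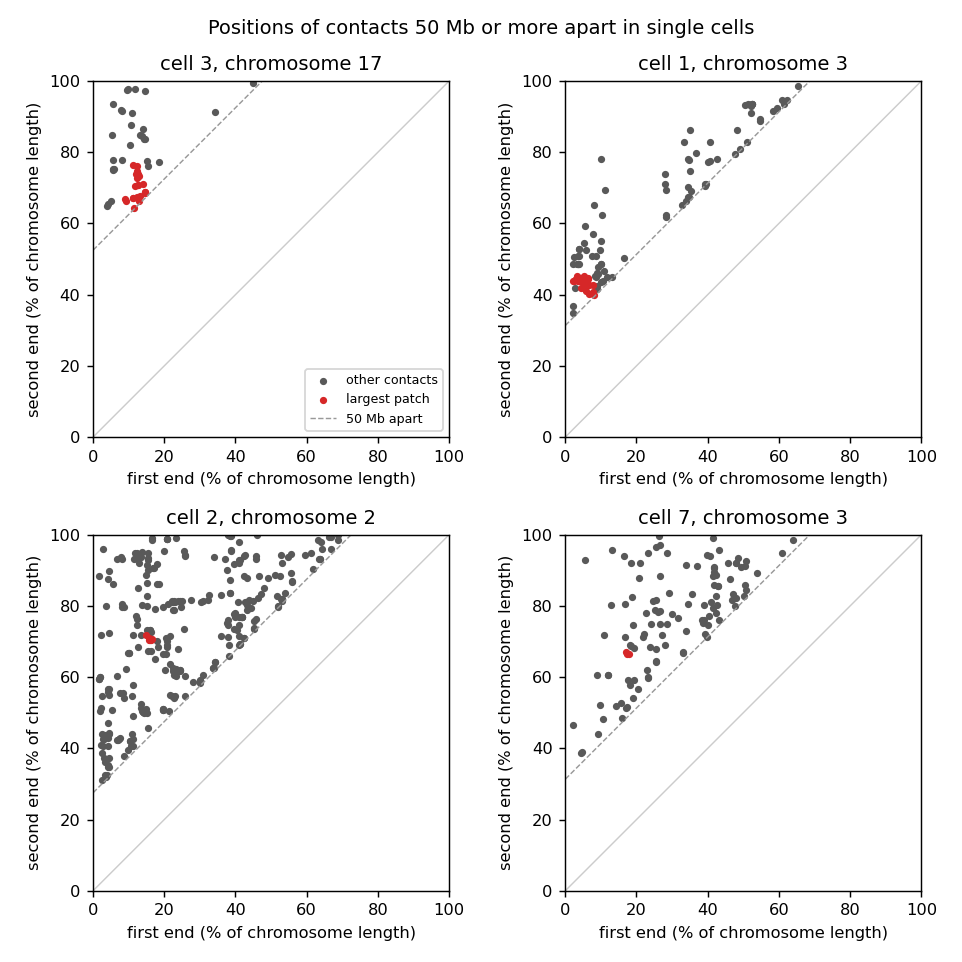
Positions of the contacts 50 Mb or more apart on 4 single chromosomes, with the first end on the x axis and the second on the y axis (percent of chromosome length, 0 at the centromere side; dashed line, 50 Mb). Red points are the largest patch: 22 of 51 contacts on chromosome 17 of cell 3 and 28 of 111 on chromosome 3 of cell 1, against 9 of 299 on chromosome 2 of cell 2 and 3 of 117 on chromosome 3 of cell 7.

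Although patches were denser than in the ensemble, the members reached nearly the whole of each chromosome. On the 135 chromosomes a median of 93.8% of 5 Mb segments held an end of at least 1 member, with a range of 65% to 100%. Chromosomes 1 and 2 were touched in all 40 and all 37 of their segments in the median cell. The median was 15 of 20 on chromosome 17 and 14 of 18 on chromosome 18, with 3 cells each. With no minimum number of members, cell 10 touched 72.3% of segments, the lowest of the 9 cells. The number of segments touched over the number that the same count of contacts would touch with the ensemble's shares was lowest in cell 3 with 0.957, had a median of 0.974 in cell 2 and was highest in cell 9 with 0.9995.

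All 9 cells lay below 1, with a mean of 0.975 ± 0.0131 (SD, n = 9) and an adjusted p of 0.00558 (exact sign-flip permutation). After contacts closer than 1 Mb to one another on both sides were merged into 1, the ratio was 0.992 with an adjusted p of 0.148 (exact permutation, 9 cells). The shortfall in touched segments was therefore not past the threshold in that case. The expected segments were not matched to the distances of each cell.

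A chromosome folded back on itself as a whole, like a hairpin, would pair positions that run in opposite directions, so that the 2 coordinates of its contacts correlate negatively. No such chromosome was found: of the 135 chromosomes with at least 30 members, none had a correlation of the 2 coordinates under 0. The requirement of 50 Mb between ends by itself makes this correlation positive, and in the ensemble it ran from 0.495 on chromosome 17 to 0.699 on chromosome 1. Haplotypes are mixed in these values, so a hairpin on 1 of the 2 copies would be diluted.

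The mean correlation minus that of the ensemble was lowest in cell 2 with -0.0473, had a median of 0.0517 in cell 3 and was highest in cell 1 with 0.245. It was above 0 in 8 of 9 cells, with a mean of 0.0606 ± 0.0784 (SD, n = 9) and an adjusted p of 0.0217 (exact sign-flip permutation). Cell 1, with the shortest median distance of its members, had a mean correlation of 0.871, and cell 2, with the longest, 0.584. After the ensemble was weighted to the distances of each cell, an alternative chosen after the data were examined, the mean difference was -0.0102 ± 0.0215 (SD, n = 9). It was then above 0 in 4 of 9 cells, with an adjusted p of 0.221 (exact permutation). At matched distances no net fold-back, in either direction, was thus detectable.

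Against the ensemble before that weighting, the lowest differences in the 9 cells were those of chromosome 10 in cell 2 (0.419 against 0.682 in the ensemble) and chromosome 14 in cell 5 (0.366 against 0.618). Chromosome 17 in cell 2 (0.250 against 0.495), chromosome 8 in cell 9 (0.345 against 0.576) and chromosome 17 in cell 3 (0.295 against 0.495) followed. They were named after their values were seen, and single chromosomes were not compared at matched distances. Chromosome 17 was below the ensemble in each of the 3 cells that held at least 30 members there, with a mean of 0.313 ± 0.0729 (SD, n = 3), and on chromosome 14 this held in 6 of 9 cells. On chromosomes 1 and 4 every cell with enough members (8 and 9 cells) lay above the ensemble. Inside the largest patches of at least 5 contacts, 47 of 93 had a negative correlation, with a median of -0.00576.

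Compartment classes of 1 Mb bins were taken from ensemble cis contacts under 50 Mb, so that the members played no part in setting them. Class 1, where Bgl II fragment ends lie denser, holds 36.5% of classed bins, and class 2 holds the rest. The values whose sign gives the class correlated with fragment end density at r from 0.186 (chromosome 14) to 0.649 (chromosome 11). The numbering thus rests on a weak correlation on some chromosomes. Without balancing of the maps, 65.0% (chromosome 3) to 90.8% (chromosome 11) of bins kept their class. With no gene annotation of the maps' genome build used here, the classes are numbered and not called active or inactive. The expected share of contacts within a class came from how many contact ends each bin had in the same map, by chromosome and distance class.

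The members joined bins of the same class more often than expected in every cell. The same-class share was 68.3% ± 3.17 (SD, n = 9) against 51.7% expected. The excess was lowest in cell 4 with 10.7 percentage points, had a median of 17.8 in cell 10 and was highest in cell 3 with 19.7. Its mean was 16.5 ± 3.23 points (SD, n = 9), with an adjusted p of 0.00558 (exact sign-flip permutation). Cell 8 had 17.4 points, the remaining pool 18.3 and the ensemble 12.8.

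At 10 to 50 Mb the excess was 18.01 ± 3.21 points (SD, n = 9). The members' excess minus the excess at 10 to 50 Mb was -1.47 ± 1.06 points (SD, n = 9) and below 0 in 9 of 9 cells, with an adjusted p of 0.00558 (exact sign-flip permutation). In cell 8 it was 0.0211, on the other side of 0. The difference depended on how classes were set. It was -0.0129 points with classes from all ensemble cis distances, with an adjusted p of 0.977, and -0.0378 with classes from the remaining pool, with an adjusted p of 0.934 (exact permutation, 9 cells). With classes from maps that were not balanced it was 0.221 points, with an adjusted p of 0.730 (exact permutation).

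The make-up of same-class contacts differed between the members and contacts 10 to 50 Mb apart. The difference kept its direction and its side of the threshold under every other class track, weighting and merging of contacts tried. Contacts between class 1 bins were observed at 1.26 ± 0.160 times expectation among the members, against 1.06 ± 0.0639 at 10 to 50 Mb (SD, n = 9 each). On the log2 scale the difference per cell was lowest in cell 4 with -0.02, had a median of 0.19 in cell 6 and was highest in cell 1 with 0.55. The mean was 0.25 ± 0.19 and 8 of 9 cells lay above 0, with an adjusted p of 0.00781 (exact sign-flip permutation over 9 cells, 2 tests added after the data were examined).

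Contacts between class 2 bins went the other way, at 1.34 ± 0.102 times expectation among the members, against 1.49 ± 0.0896 at 10 to 50 Mb (SD, n = 9 each). The log2 difference was lowest in cell 10 with -0.30, had a median of -0.10 in cell 3 and was highest in cell 2 with -0.09. The mean was -0.15 ± 0.07, and all 9 cells lay below 0, with an adjusted p of 0.00781 (exact sign-flip permutation). Contacts between the classes were observed at 0.657 ± 0.0663 times expectation among the members and 0.633 ± 0.0649 at 10 to 50 Mb (SD, n = 9 each).

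By distance class, summed over the 9 cells, contacts between class 1 bins were at 1.00 times expectation at 10 to 20 Mb, 1.09 at 20 to 50 Mb, 1.19 at 50 to 60 Mb, 1.20 at 80 to 100 Mb and 1.60 at 100 Mb or more. Contacts between class 2 bins were at 1.47, 1.44, 1.45, 1.30 and 1.21 over the same distances. The class 1 value passed the class 2 value in the longest class, which rests on 1242 contacts. In the remaining pool class 1 pairing had 1.03 at 10 to 20 Mb and 1.64 at 100 Mb or more, and class 2 pairing 1.54 and 1.17. In the ensemble the same values were 0.968 and 1.32 for class 1, and 1.65 and 1.13 for class 2. Only the longer chromosomes hold the longest distances, and the mix of chromosomes was not held fixed between distances. Among the members, class 1 pairing summed over the 9 cells ran from 0.909 on chromosome 18 to 1.54 on chromosome 2, chromosome 19 aside. The part of that mix in the change with distance was not tested.

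Over all members, class 1 pairing minus class 2 pairing was -0.10 ± 0.26 on the log2 scale (SD, n = 9), with an adjusted p of 0.285 (exact sign-flip permutation). Cell 4 had the lowest value, -0.44, and cell 1 the highest, 0.43. The cells spread over both sides of 0, and the sign of the mean turned with the weights and the distance threshold.

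By chromosome, the same-class excess summed over the 9 cells was above 0 on each of the 18 autosomes other than chromosome 19, whose 10 contacts are too few for a value. It was highest on chromosome 11 with 26.2 points (499 contacts), then on chromosome 5 with 23.9 (841 contacts) and on chromosome 17 with 23.7 (264 contacts). It was lowest on chromosome 7 with 6.71 points (680 contacts) and chromosome 13 with 8.65 (581 contacts). On chromosome 7 the excess was above 0 in 7 of the 8 cells with at least 20 contacts. In the ensemble these extremes were closer together, with 18.5 points on chromosome 11 and 9.04 on chromosome 7.

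Along the chromosome, the members' ends were more frequent than expected near the centromere and less frequent near the other end. In the first 10 Mb of covered sequence, the centromere side, observed over expected ends were lowest in cell 6 with 1.11, had a median of 1.22 in cell 10 and were highest in cell 1 with 1.45. All 9 cells lay above 1, with a mean of 1.23 ± 0.122 (SD, n = 9) and an adjusted p of 0.00558 (exact sign-flip permutation). The ratio was 1.33 in cell 8, 1.21 in the remaining pool and 1.19 in the ensemble.

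In the last 10 Mb the ratio was lowest in cell 9 with 0.723, had a median of 0.811 in cell 5 and was highest in cell 2 with 1.04. It lay below 1 in 8 of 9 cells, with a mean of 0.844 ± 0.102 (SD, n = 9) and an adjusted p of 0.00977 (exact sign-flip permutation). The ratio was 0.838 in cell 8, 0.828 in the remaining pool and 0.850 in the ensemble. Expected numbers came from the ends of all contacts of the same map per bin, by chromosome and distance class. The part of low coverage at a chromosome end in the deficit was not tested.

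Between the ends of the chromosome the deviations were smaller. With each chromosome cut into 10 equal parts from the centromere side, the mean was 1.21 ± 0.0882 in part 1, 0.953 ± 0.0491 in part 3, 1.04 ± 0.0851 in part 7 and 0.883 ± 0.0967 in part 10 (SD, n = 9 each). Contacts that joined the first 10 Mb with the last 10 Mb numbered 206 in the 9 cells against 209 expected, a ratio of 0.986, so the members did not pair both ends of a chromosome beyond expectation.

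The excess at the centromere side was spread over most chromosomes. Summed over the 9 cells it was above 1 on 16 of the 18 chromosomes other than 19, with the highest ratio on chromosome 16 (1.58, 228 ends against 145 expected, above 1 in 9 of 9 cells) and the lowest on chromosome 9 (0.882, 104 against 118). Chromosome 4 followed with 1.53 and chromosome 6 with 1.496. In the last 10 Mb the ratio was below 1 on 14 of the 18, and lowest on chromosome 15 (0.618, 70 ends against 113 expected) and chromosome 8 (0.638, 74 against 116), both below 1 in 9 of 9 cells. Chromosome 2 was the highest there, with 1.21.

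**Figure D5:**
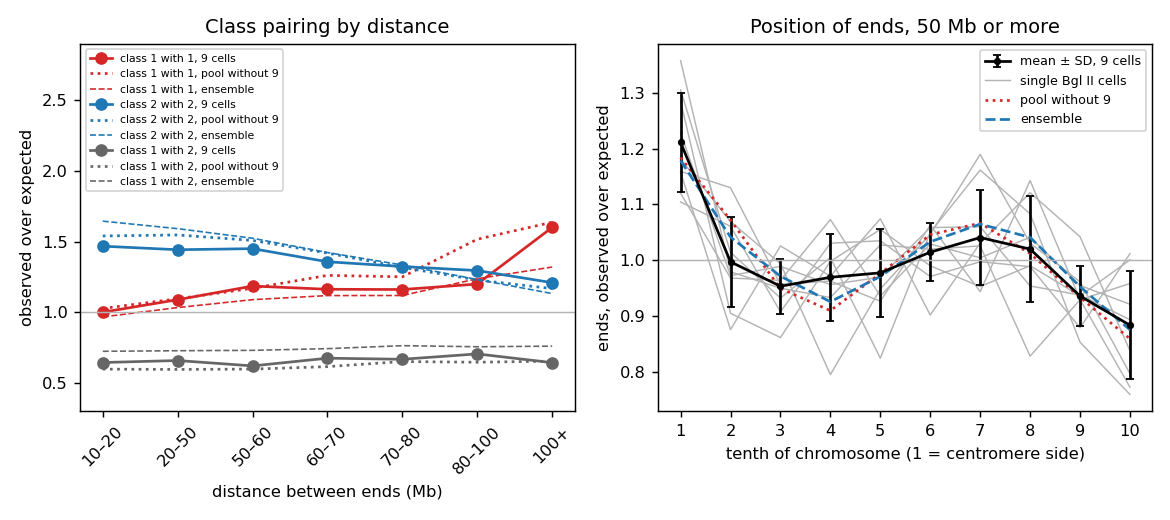
Left, observed over expected contacts between bins of class 1, of class 2 and of different classes (y axis) by distance between the ends (x axis, Mb), summed over 9 cells (points), in the pool without them (dotted) and in the ensemble (dashed). Right, observed over expected ends of contacts 50 Mb or more apart in 10 equal parts of chromosome length, as mean ± SD of 9 cells (black), single cells (grey), pool (dotted) and ensemble (dashed). Class 1 pairing is at 1.00 at 10 to 20 Mb and 1.60 at 100 Mb or more, and part 1 holds 1.21 times the expected ends, part 10 0.883 times.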

How the data were processed

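The deposited files hold, per the file headers, 1 contact a line, as the chromosome and bp position of its 2 fragment ends, a unit other than counts or signal, and no read numbers. Per the submitters' processing notes, positions are on mm9. What aligner and read filters were used is not given in the sources used.

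Members and region lists were chosen with earlier results of these data known. Bins of 1 Mb with at least 0.2 of the median number of ensemble fragment ends were used (2373 of 2482), which held 99.7% of the members of the 9 cells. Classes are signs of the leading eigenvector of ensemble observed over expected cis contacts under 50 Mb, after 50 iterations of balancing, oriented by fragment end density. Expected numbers were taken by chromosome and 10 Mb distance class, except those from ensemble shares, which were taken by chromosome alone. An offset of 0.5 was added to observed and expected counts per chromosome before the log2 ratio. Patches linked contacts within 2 Mb at both ends.

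The test was an exact two-sided sign-flip permutation over the 9 Bgl II cells, with Benjamini-Hochberg adjustment over 10 tests with 1 value per cell and, separately, over 19 chromosomes, at 0.05. The scripts were tested on simulated data. Named regions were, per cell, the chromosomes with the highest and lowest ratio (at least 10 expected contacts) and the largest patch; the 5 chromosomes with the largest and the 5 with the lowest share in 1 patch (at least 30 contacts); and the 5 tiles with the most contacts in 1 cell. Alternatives were other thresholds, tile sizes, zones, weights, class tracks, bases, merged contacts, all 10 cells and each cell left out. No genes or sequences are given, since no mm9 genome was used here. Software was Python 3.11.15 with pandas 2.3.3, numpy 2.4.6, matplotlib 3.10.9 and scipy 1.17.1.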

Additional observations from a re-analysis of the deposited data

Results flagged for a closer look

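In 43 sets of 9 Bgl II cells, 6 held a cell far from the others by Dixon's criterion, which chance alone meets in about 1 set in 20. Cell 1 stood apart in 3 of them. Its gathering of members in 5 Mb tiles was 2.89 times that of the ensemble, against 1.15 to 1.87 in the other cells. Relative to pairs from different cells the ratio was 3.10, against 1.25 to 2.04. Its correlation of the 2 coordinates minus that of the ensemble was 0.245, against -0.0473 to 0.0841. Beside these values, cell 1 had the shortest median distance of its members, 59.4 Mb, and the lowest trans share, 6.86%. With the ensemble weighted to its distances, the difference of cell 1 was 0.0019.

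On that distance-weighted scale cell 10 stood apart with -0.0578, against -0.0189 to 0.0155 in the other cells, from 6 chromosomes with at least 30 members. On chromosome 16, with 0.5 added to both counts, cell 6 had 2.36 times the expected members, against 1.30 to 1.78. On chromosome 19 cell 2 had 2.61 times, against 0.208 to 1.38, from 10 contacts in all 9 cells. No cause of these values was tested.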

How the results depend on the processing

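Of 208 recomputed values with a test, 192 kept their direction and their side of the threshold. Of 34 shares and counts with no test, 29 moved by less than 1 SD between cells or 1.5 times. The mean share of members was 17.3% of cis contacts of 1 Mb or more, and 13.7% and 3.36% with thresholds of 40 and 75 Mb. Segments touched over expected were 0.992 with neighbouring contacts counted once. The fold-back difference was 0.0143 with the remaining pool as base, 0.0468 from 40 Mb, and -0.0102 with 9 cells or -0.0118 without cell 1 after weighting to distance. Minus 10 to 50 Mb, the same-class excess was -0.0129 points with classes from all distances, -0.0378 with pool classes and 0.221 without balancing. Class 1 minus class 2 pairing (log2) passed the threshold in opposite directions: 0.36 without weights, and -0.64 without balancing, -0.25 with pool classes, -0.35 without the bins of smallest eigenvector values, -0.18 from 40 Mb and -0.16 without cell 1. From 60 and 75 Mb it was 0.027 and 0.26, not past the threshold. Without distance classes 7 chromosomes were called (5 with more contacts, 2 with fewer), and with all 10 cells 1 was. The cause of these changes was not tested.

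Leaving out each cell gave -0.16 to -0.054 for class 1 minus class 2 pairing, 8.66% to 10.1% for the share, 17.3 to 19.9 for density over trans, 1.51 to 1.70 and 1.66 to 1.86 for tile gathering over the ensemble and between cells, 0.0375 to 0.0741 for fold-back, 16.1 to 17.3 points for the same-class excess, 1.204 to 1.24 for the first and 0.817 to 0.855 for the last 10 Mb, and 0 chromosomes called. No paired analysis was possible because the groups share fewer than 2 replicate numbers. Depth limits single chromosomes most: cell 10 held 460 members and had at least 30 on 6 chromosomes.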
